A study of Mus musculus with 8 samples.

Results

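The Bex (brain expressed X-linked) and Tceal (transcription elongation factor A like) genes are a family of small protein-coding genes on the X chromosome. They were examined here in kidneys of control mice and of mice in which Kdm1a, encoding the histone demethylase LSD1, had been conditionally knocked out. The genes named Bex1, Bex2, Bex3, Bex4, Tceal1, Tceal3, Tceal5, Tceal6, Tceal8 and Tceal9 were taken, and all 10 were matched by symbol among the 49315 genes counted in each library. The family was picked because Tceal3 and Bex1 were higher in all knockout libraries, so the knockout values of those 2 genes are a description and carry no test. The other 8 were tested across all genes, but they belong to a family chosen from the same contrast.

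Polyadenylated RNA from frozen kidney was sequenced in 8 libraries. The 4 control libraries came from kidneys labelled Control, which the extraction protocol calls wild type, and the 4 knockout libraries from kidneys labelled as Kdm1a conditional knockout. The labels used here do not give the Cre driver, the kidney cells in which the allele was deleted, or the age and sex of the animals. They also do not say whether the 4 libraries of a group came from separate animals, so p-values measure the spread between these libraries.

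Total counts ran from 19524945 to 28544511 per library, and levels are given as counts per 1000000 counts of the library (CPM). Kdm1a itself was at 109.8, 112, 119.8 and 109.7 CPM in control replicates 1 to 4 and at 94.0, 95.3, 90.9 and 94.2 CPM in knockout replicates 1 to 4. All knockouts lay below all controls, with a log2 difference of -0.27 (SE 0.054, adjusted p = 0.0194 by edgeR's quasi-likelihood test) and a ratio of means of 0.830. The labels do not say which exons the deletion removes, and the counts cover the whole gene. Several libraries stood apart from their group. Control replicate 2 had the lowest summed proximal tubule markers of the controls (406 CPM against 896 to 1548), and knockout replicate 3 the highest of the knockouts (326 CPM against 68.3 to 162). Summed adrenal cortex markers reached 3166 CPM in knockout replicate 1, 332 CPM in knockout replicate 4 and 172 in control replicate 4, and lay between 15.3 and 32.2 CPM in the other libraries. Xist, the RNA of the inactive X chromosome in females, was at 965 CPM or more in 3 libraries (control replicate 2, knockout replicates 1 and 4), while none of the other 5 exceeded 6.14 CPM.

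Tceal proteins resemble part of the elongation factor TFIIS, which restarts stalled RNA polymerase II, and they are thought to modulate transcription. Bex proteins are small and largely disordered and are known from neurons and from several cancers. Bex1 and Bex3 bind the neurotrophin receptor p75, and Bex3 was first described as NADE, a p75-associated protein linked to cell death. The family arose by duplication in placental mammals, next to the related Armcx and Gprasp genes, and genes of this cluster have been described to share a short promoter element.

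The 10 genes lay within 1.503 Mb of chromosome X (GRCm38, X 135208687 to 136711478). Bex2, Bex4, Tceal8, Tceal5, Bex1, Tceal9 and Bex3 followed each other within 205 kb, while Tceal6 lay 856 kb to the left of Bex2 and Tceal3 319 kb to the right of Bex3. The genes are short: the longest coding sequences, of Tceal3, Tceal5 and Tceal6, had 600 bases without the stop codon, and the shortest, of Tceal9, had 312. Tceal3 and Tceal6 were identical at 98.2% of aligned coding bases, although they lie more than 1 Mb apart, and Tceal5 was 87.6% identical to Tceal3. Bex1 and Bex2 were 91.5% identical in coding sequence, whereas Bex1 and Bex4 were only 54.2% identical.

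At the promoters the pairing differed. In windows from 250 bases before to 50 bases after the start site (RefSeq, GRCm38.p6), Bex1 and Bex4 were 95.1% identical and shared an unbroken run of 271 bases, while Bex1 and Bex2 were 47.9% identical. Bex2 and Bex3 shared an unbroken run of 162 bases, which ended before the start site of Bex3. The stretches below show these pairs, with the E-box CACGTG (a site of basic helix-loop-helix factors) and the GC box GGGCGG in capitals.
Bex1 (X:136215504-136215588, minus strand): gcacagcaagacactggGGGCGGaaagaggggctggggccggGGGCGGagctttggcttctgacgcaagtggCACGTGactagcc
Bex4 (X:136138921-136139005, plus strand): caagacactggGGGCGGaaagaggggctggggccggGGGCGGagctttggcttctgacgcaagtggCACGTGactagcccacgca
Bex2 (X:136068227-136068296, minus strand): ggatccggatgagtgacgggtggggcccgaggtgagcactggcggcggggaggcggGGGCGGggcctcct
Bex3 (X:136270168-136270237, plus strand): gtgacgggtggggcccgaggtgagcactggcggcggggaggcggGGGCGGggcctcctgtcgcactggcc

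Another arrangement, the 6-base element GTGACG followed by CACGTG, was present at the starts of Tceal3, Tceal6, Tceal5 and Tceal1 (and of Bex3), and both are shown next in capitals. Tceal9, which has GTGACG but not CACGTG, is shown for comparison. These 2 motifs were chosen after the windows had been read.
Tceal3 (X:136666330-136666404, plus strand, the second of its 3 start sites): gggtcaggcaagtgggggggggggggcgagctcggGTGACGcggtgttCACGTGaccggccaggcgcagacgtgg
Tceal6 (X:135210658-135210732, minus strand): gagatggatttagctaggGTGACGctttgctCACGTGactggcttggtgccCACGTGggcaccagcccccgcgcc
Tceal5 (X:136203855-136203929, minus strand): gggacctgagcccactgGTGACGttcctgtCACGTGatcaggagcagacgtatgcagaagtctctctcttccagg
Tceal1 (X:136707937-136708011, plus strand): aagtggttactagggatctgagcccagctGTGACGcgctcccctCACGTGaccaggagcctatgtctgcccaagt
Tceal9 (X:136245035-136245109, plus strand): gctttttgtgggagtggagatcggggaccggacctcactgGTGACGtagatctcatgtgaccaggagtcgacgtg

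CACGTG (its own reverse complement) was found in at least 1 window of 8 of the 10 genes, all but Bex2 and Tceal9, and in 7.15% of all 32851 windows in the table. The longer form TCACGTGA, which contains CACGTG and is also its own reverse complement, was found in 6 of the 10 genes (Bex3, Tceal1, Tceal3, Tceal5, Tceal6 and Tceal8) and in 0.974% of windows. GTGACG on either strand was found in 8 of the 10 genes, all but Bex1 and Bex4, and in 9.44% of windows. GTGACG followed 7 to 9 bases later by CACGTG was found in 20 genes of the whole table, or 0.067% of windows. These 20 included Bex3, Tceal1, Tceal3, Tceal5 and Tceal6, with 7 bases between in Tceal3, Tceal5 and Tceal6 and 9 in Tceal1 and Bex3. They also included Armcx1 and Armcx6 of the neighbouring Armcx family. The gaps searched, 7 to 9 bases, span just those seen in the members, so the rarity of the pair is only a description. Tceal3 and Tceal5 had 3 windows each, while the shares of the whole table are per window. The pair was present in Tceal6, which rose in the knockouts, and also in Tceal1, Tceal5 and Bex3, which did not pass the test. GGGCGG was found in 8 of the 10 genes and in 35.7% of windows, TATAAA in 1 (Bex2) and in 13.6% of windows, and the general E-box CANNTG, which contains CACGTG, in all 10 and in 72.3% of windows (each on both strands). The letters are a description of these windows, and no binding was measured.

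**Figure D1:**
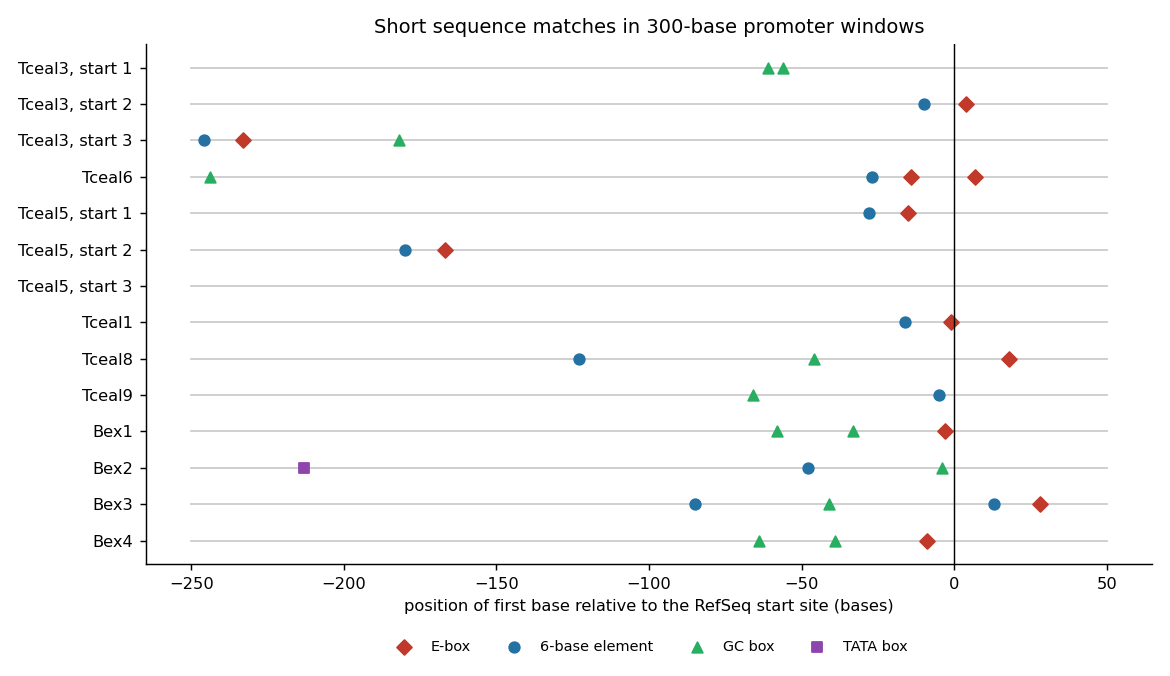
Matches of the E-box, the 6-base element, the GC box and the TATA box in the 300-base RefSeq promoter windows of the 10 genes, by the distance of the first base of the match from the start site (x axis, in bases; the vertical line marks the start). The E-box lies close to the start of most genes and the GC boxes of Bex1 and Bex4 lie at nearly the same places.

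Levels of different genes can be compared only per length, as CPM per 1000 bases of annotated exon (RPKM). In controls Tceal9 was the most abundant at 325 ± 24.6 RPKM (SD, n = 4), followed by Bex3 at 225 ± 14.8, and the ranges of these 2 genes over the 4 controls did not overlap. Bex2 (55.1 ± 5.97 RPKM), Bex4 (48.3 ± 3.41), Tceal8 (42.6 ± 2.46) and Bex1 (40.7 ± 3.04) formed a middle group, in which each overlapped its neighbour. Tceal1 was at 6.14 ± 0.553 RPKM, Tceal3 at 3.95 ± 0.273 and Tceal5 at 3.69 ± 0.393, with overlapping ranges for the last 2, and Tceal6 was lowest at 0.520 ± 0.221. In knockouts the order differed at several places. Bex4, at 70.1 ± 3.09 RPKM, lay above Bex2 at 59.98 ± 3.92 with no overlap, and Tceal3, at 7.75 ± 0.420 RPKM, overlapped Tceal1 at 6.81 ± 1.35. Bex1, at 51.9 ± 4.51 RPKM, lay above Tceal8 at 42.8 ± 3.24 with no overlap. The annotated exon length of Tceal3, 3546 bases over 3 start sites, may exceed the transcript present, which would lower its RPKM.

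Tceal3 gave the larger of the differences for which the family was picked. It was at 15.4, 13.5, 14.0 and 13.1 CPM in control replicates 1 to 4 and at 28.9, 28.0, 25.4 and 27.7 CPM in knockout replicates 1 to 4. The groups did not overlap, and the mean went from 14.0 ± 0.969 to 27.5 ± 1.49 CPM (SD, n = 4), a ratio of 1.96 and a log2 fold change of 0.97 (SE 0.086). Tceal3 counts were 289 to 770 per library.

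Tceal6, the near-identical copy of Tceal3 at the other end of the cluster, was close to the floor in controls. Its counts were 9, 20, 14 and 10 in control replicates 1 to 4 and 68, 52, 56 and 90 in knockout replicates 1 to 4, which is 0.369, 0.927, 0.565 and 0.455 CPM against 2.87, 2.61, 1.94 and 3.24 CPM. Every knockout was above every control. Tceal6 rose, with a log2 difference of 2.20 (SE 0.31, adjusted p = 0.0102 by edgeR). The control counts were near or below the level asked for by the filter on low counts. Its place in the test therefore rested on the knockouts, where it is high. With no filter on low counts it was also called. The level remained low, since the 2.66 ± 0.549 CPM of the knockouts was 0.300% ± 0.0645 of the summed CPM of the 10 genes, against 0.0685% ± 0.0273 in controls.

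Tceal5, the third copy of this subgroup, lay between Tceal8 and Bex1. It was at 4.18, 4.40, 4.76 and 5.32 CPM in controls and at 5.28, 5.27, 7.78 and 4.57 CPM in knockouts. The groups overlapped, knockout replicate 3 was the highest library, and the log2 difference of 0.30 (SE 0.19) did not pass the test (adjusted p = 0.293 by edgeR).

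Because the 3 copies are so alike, reads can match more than 1 of them. Of all stretches of 100 bases in its annotated transcripts, Tceal6 shared 20.2% with Tceal3 or Tceal5, Tceal5 shared 15.6% with the other 2 and Tceal3 shared 5.14%. The handling of such reads is not given in the sources used here, so the split of counts between Tceal3, Tceal5 and Tceal6 is uncertain. The sum of the 3 genes does not depend on that split as long as such reads were counted, and it was 19.9, 18.9, 19.3 and 18.9 CPM in controls against 37.0, 35.9, 35.1 and 35.5 CPM in knockouts. The spread within each group was small, with means of 19.3 ± 0.484 and 35.9 ± 0.830 CPM and a ratio of 1.86, mostly from Tceal3, whose separation was used to pick the family. Tceal6 moved by more than Tceal3: its CPM divided by that of Tceal3 was 0.0419 ± 0.0190 in controls and 0.0964 ± 0.0168 in knockouts, with no overlap.

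The remaining Tceal genes, which have no close copy, showed smaller differences, and none passed the test. Tceal1, known as a nuclear phosphoprotein that modulates transcription, was at 18.5, 15.8, 15.9 and 18.6 CPM in controls and at 18.2, 24.6, 17.5 and 16.0 CPM in knockouts. Its log2 difference was 0.15 (SE 0.14, adjusted p = 0.485 by edgeR), and without knockout replicate 2, the highest library, it was 0.0012. Tceal8 was at 106, 119, 106 and 105 CPM in controls and at 97.3, 113, 114 and 114 CPM in knockouts, a log2 difference of 0.0080 (SE 0.073, adjusted p = 0.946 by edgeR). Tceal9, the most abundant member, was at 306, 362, 353 and 326 CPM in controls and at 368, 339.7, 372 and 355 CPM in knockouts, a log2 difference of 0.092 (SE 0.068, adjusted p = 0.354 by edgeR). In all 3 genes the groups overlapped.

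**Figure D2:**
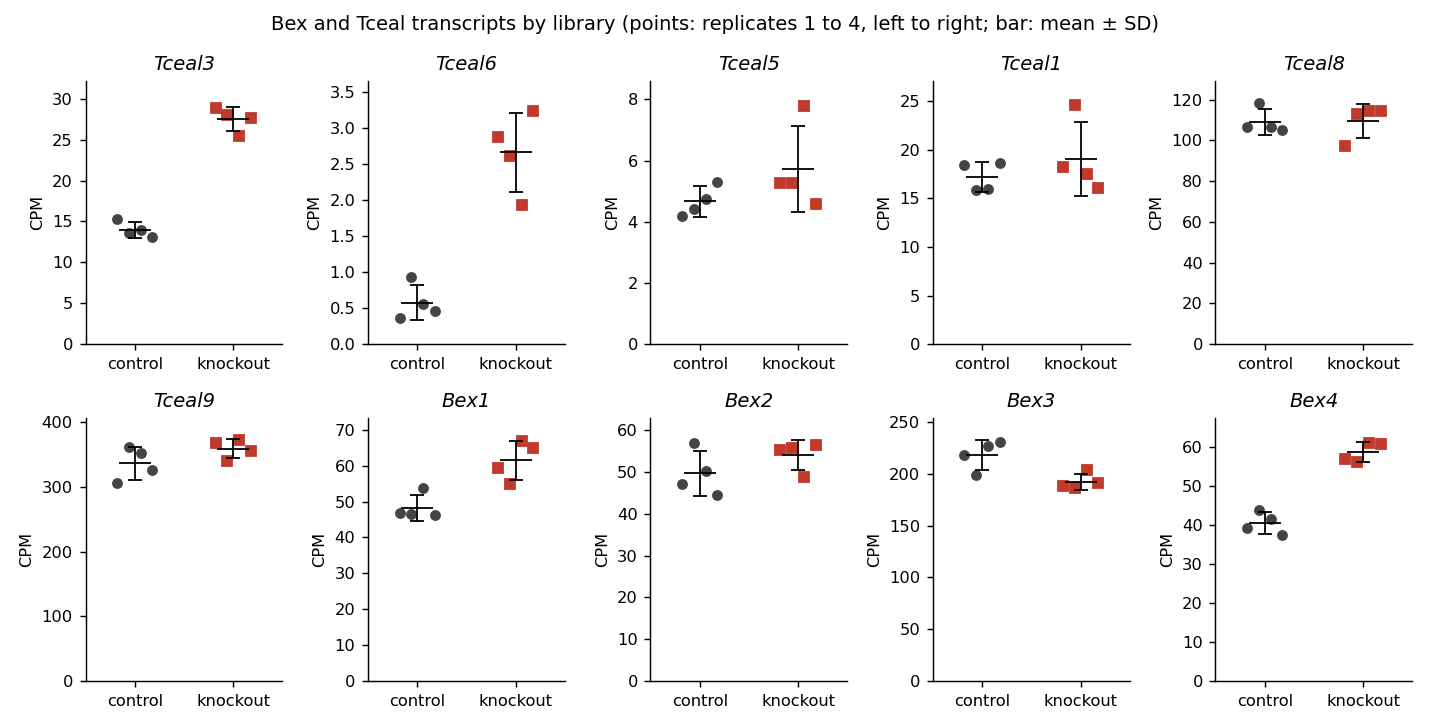
CPM of each of the 10 genes (y axis, starting at 0) in the 4 control libraries (circles) and the 4 knockout libraries (squares), replicates 1 to 4 from left to right in each group; the long bar is the mean and the error bar the SD. In Tceal3, Tceal6, Bex1 and Bex4 every knockout lies above every control, and in the other 6 genes the groups overlap.

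Among the Bex genes, Bex4 rose and Bex1 was higher in every knockout. Bex4, described as a tubulin-binding protein, was at 39.2, 43.9, 41.4 and 37.3 CPM in controls and at 56.9, 56.0, 61.0 and 60.8 CPM in knockouts. The knockouts all lay above the controls, and Bex4 rose, with a log2 difference of 0.54 (SE 0.069, adjusted p = 0.00815 by edgeR), from 40.5 ± 2.86 to 58.7 ± 2.59 CPM. Bex1, which is linked to neurotrophin signalling and to the cell cycle, was at 46.7, 46.5, 53.7 and 46.4 CPM in controls and at 59.3, 55.0, 66.8 and 64.9 CPM in knockouts. The lowest knockout was 55.0 CPM and the highest control 53.7 CPM, so the groups were separated by a narrow gap, with a log2 fold change of 0.35 (SE 0.083).

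Bex2, the close copy of Bex1 in coding sequence, was at 47.1, 57.0, 50.4 and 44.5 CPM in controls and at 55.4, 55.8, 48.9 and 56.5 CPM in knockouts. The groups overlapped over most of their range and the log2 difference was 0.12 (SE 0.088, adjusted p = 0.341 by edgeR). Bex3, the p75-associated gene, differed in the other direction, at 218, 198, 227 and 231 CPM in controls and 188, 186, 203 and 192 CPM in knockouts. Control replicate 2 was below knockout replicate 3, and the log2 difference of -0.18 (SE 0.064) did not pass the test (adjusted p = 0.0798 by edgeR). Without control replicate 2 the log2 difference was -0.23 and passed (adjusted p = 0.0119 by edgeR), and DESeq2 gave -0.18 with an adjusted p of 0.0333. Over 20 alternatives the adjusted p of Bex3 ran from 0.00496 to 0.370.

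The ratio of Bex4 to Bex3 within a library was 0.180, 0.221, 0.183 and 0.162 in controls and 0.302, 0.302, 0.300 and 0.317 in knockouts. These 2 genes lie in the same block, and the ratio is free of the scaling between libraries. It separated the groups, with means of 0.186 ± 0.0251 and 0.305 ± 0.00811. Bex4 had the highest and Bex3 the lowest log2 difference of the block. The CPM of Bex4 by itself already separated the groups, as did that of Bex1. The separation of this ratio is therefore only a description. The ratio of Bex4 to Bex1, which share their promoter run, was 0.840 ± 0.0752 in controls and 0.957 ± 0.0447 in knockouts, and those groups overlapped.

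Reads of the Bex genes can also be shared. Bex1 shared 20.4% of its stretches of 100 bases with another gene (Bex2, Bex4 or Tceal7) and Bex4 shared 26.0% (Bex1 and the gene models Gm12245 and Gm4322), against 8.71% in Bex2 and 5.74% in Bex3, and none in Tceal1, Tceal8 and Tceal9. Bex1 also overlaps Tceal7 on the opposite strand. The strand setting of the counting is not given in the sources used here, but Tceal7 had at most 18 counts in a library. Summed over the pair, Bex1 and Bex4 were at 88.8 ± 5.09 CPM in controls and 120.2 ± 7.89 CPM in knockouts, a ratio of 1.35, and Bex1 and Bex2 were at 98.1 ± 6.71 and 116 ± 4.34 CPM, a ratio of 1.18. Both sums contain Bex1, whose separation was used to pick the family.

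Over the family, 4 of the 10 genes had all knockouts above all controls and 0 had all knockouts below. Over all 18485 genes tested, 9.29% had all knockouts above and 9.58% all knockouts below, and 2 of the 4 genes are those for which the family was picked. Of the 8 other genes, 2 rose (Bex4 and Tceal6) and 0 fell by edgeR's quasi-likelihood test at an adjusted p under 0.05, where 14.9% of all tested genes were called, 6.61% higher and 8.27% lower. At an unadjusted p under 0.05, Bex3 was also lower. The median log2 difference of the 8 was 0.13, beside 0.0044 over all tested genes and 0.14 over the 612 tested genes of chromosome X. The summed CPM of the 10 genes was 839 ± 30.3 in controls and 889.99 ± 22.7 in knockouts, and those ranges overlapped, because Tceal9, Bex3 and Tceal8 together made up most of the sum. Without those 3, the sum went from 175 ± 7.79 to 229 ± 3.10 CPM, a ratio of 1.31, but that sum holds both genes for which the family was picked and leaves out Bex3.

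The calls of Bex4 and Tceal6 were kept in each of the 8 fits that left out 1 library. With knockout replicates 1 and 4, the 2 with raised adrenal markers, both left out, the log2 differences were 0.53 for Bex4 and 1.96 for Tceal6, but the adjusted p-values were 0.131 and 0.139 by edgeR, in a fit that called 1 of 19167 genes. The values of Tceal3 (0.93) and Bex1 (0.33) in that fit were close to those over all libraries. The family was picked because Tceal3 and Bex1 were higher in all knockout libraries, so their rise in any subset follows from that choice. The mean log2 CPM of the tested adrenal cortex and chromaffin cell markers was also used as a covariate. With it, Bex4 was at 0.55 (adjusted p = 0.0192 by edgeR) and Tceal6 at 2.12 (adjusted p = 0.0244 by edgeR). With control replicate 2 and knockout replicate 3 left out together, 3 of the 8 were called higher, with Bex2 added (log2 difference 0.24, adjusted p = 0.0209 by edgeR), and Bex3 was called lower (-0.26, adjusted p = 0.00644 by edgeR). Over 20 alternatives the adjusted p ran from 6.70e-09 to 0.131 for Bex4, from 2.08e-07 to 0.139 for Tceal6 and from 0.0209 to 0.758 for Bex2.

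Because all members are X-linked and the libraries fall into high and low Xist, the high-Xist libraries were compared with the others with genotype in the model. This contrast was not used to choose the family, so all 10 genes could be tested. By edgeR 0 of the 10 were called in either direction, and 8 of the 18485 tested genes were, which is 0.0433% (0.0162% higher and 0.027% lower). Those 8 were Xist, Kdm6a, the Y-linked Kdm5d, Eif2s3y, Uty and Ddx3y, the gene model Gm29650, and the limb and neural crest factor Hand2. Kdm6a, a histone demethylase gene known to escape X inactivation, was higher by 0.86 on the log2 scale in high-Xist libraries. DESeq2 and limma-voom also called 0 of the 10, beside 200 and 38 of the 18485 tested genes. The high-Xist knockouts were also the knockouts with raised adrenal cortex sums and the highest neuron sums, so within the knockouts these differences coincide. The 1 high-Xist control, replicate 2, had the lowest proximal tubule sum of the controls (406 CPM). It also had their highest neuron sum (66.8 CPM) and fibroblast sum (4092 CPM). In both genotypes the Xist pattern therefore cannot be told apart from such marker differences. Among alternatives that kept all libraries, the genes called by Xist pattern ran from 7 with the replicate block to 1893 with the adrenal covariate. In each of these, 0 of the 10 were called.

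Tceal6 had the largest value in this contrast, at 0.63 (SE 0.24, adjusted p = 0.339 by edgeR), and it was the 1 member with an unadjusted p under 0.05 (0.0318). Tceal3 was at 0.022 (SE 0.095), Bex1 at -0.016 (SE 0.091) and Bex4 at 0.073 (SE 0.070). The largest negative values were those of Tceal5 at -0.28 (SE 0.19) and Tceal1 at -0.24 (SE 0.14). With genotype and the Xist pattern fitted together, the genotype difference of Bex4 was 0.52 (adjusted p = 0.0110 by edgeR) and that of Tceal6 2.07 (adjusted p = 0.00819 by edgeR). Among only the 5 low-Xist libraries, 3 controls and 2 knockouts, the values were 0.58 for Bex4, 2.28 for Tceal6, 0.92 for Tceal3 and 0.32 for Bex1. A rise of Tceal3 and Bex1 there follows from the choice of the family.

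**Figure D3:**
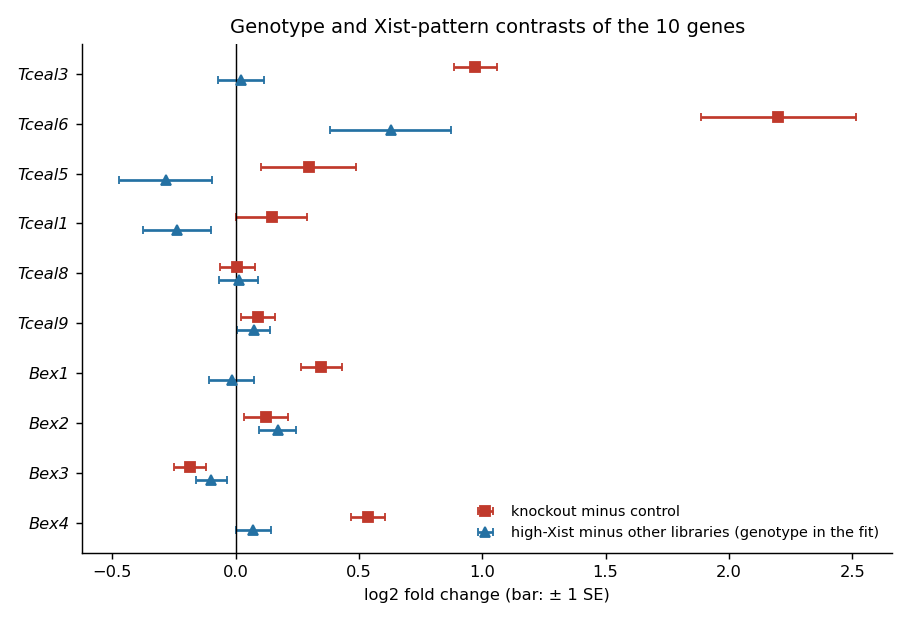
Log2 fold change (x axis) of each of the 10 genes for knockout minus control (squares) and for high-Xist minus other libraries with genotype in the model (triangles); bars are 1 SE on each side. Tceal6 at 2.20, Tceal3 at 0.97 and Bex4 at 0.54 lie farthest from 0 by genotype, while the values by Xist pattern lie between -0.28 and 0.63.

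The neighbouring Armcx and Gprasp genes, which encode armadillo-repeat proteins of mitochondria and proteins that sort G protein-coupled receptors, were examined next. Of these 9 genes, all tested, 6 rose and 0 fell by edgeR, with a median log2 difference of 0.36. Over all tested genes 6.61% were called higher and 8.27% lower. Over chromosome X, 84 of 612 tested genes were called higher and 23 lower, with a median of 0.14. The largest differences were those of Gprasp2 at 0.67 (SE 0.10, adjusted p = 0.0115) and Armcx6 at 0.61 (SE 0.13, adjusted p = 0.0212). Gprasp2 was at 25.6, 28.6, 28.8 and 23.1 CPM in controls and at 43.7, 44.4, 35.9 and 45.4 CPM in knockouts. Armcx4 (0.46), Gprasp1 (0.37), Armcx1 (0.36) and Armcx3 (0.27) also rose, whereas Armcx2 (0.21, adjusted p = 0.0512), Armcx5 (0.27, adjusted p = 0.193) and Bhlhb9 (-0.072, adjusted p = 0.565) did not pass. At an unadjusted p under 0.05, 7 were higher and 0 lower. Gprasp1 and Armcx5 overlap on the same strand, so their counts may not be separate.

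The number of Armcx and Gprasp calls rested on single libraries. It was 0 without knockout replicate 4, 3 without knockout replicate 1, and 2 without knockout replicate 2 or without control replicate 1, 3 or 4. Without control replicate 2 it was 8. The number of calls over all genes moved in the same fits, from 2751 with all libraries to 153 without knockout replicate 4 and to 7084 without control replicate 2.

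Other genes of the region were examined in the same fit. Of 25 listed, 21 were tested, 3 rose and 1 fell, where 6.61% of all tested genes were called higher and 8.27% lower, and the median log2 difference was 0.035. Zmat1, a zinc finger gene, was higher by 0.80 (adjusted p = 0.0433 by edgeR), Drp2, a dystrophin-related gene, by 1.07 (adjusted p = 0.0465), and Tmem35a, a chaperone of nicotinic acetylcholine receptors, by 1.26 (adjusted p = 0.0396). Timm8a1, a mitochondrial import gene, was lower, at -0.45 (adjusted p = 0.0291). These calls were fragile, and none of the 3 rises was kept when any 1 of knockout replicates 1, 2 and 4 or control replicates 1, 3 and 4 was left out. The most abundant neighbours did not pass: Rpl36a, a ribosomal protein gene, was at 809 ± 47.2 CPM in controls and 761 ± 59.7 CPM in knockouts, and Morf4l2, a chromatin gene, at 465 ± 6.02 and 446 ± 17.9 CPM.

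Between the left end of Tceal6 and the right end of Tceal1, 66 genes were annotated and 16 were tested. The 6 tested genes of that interval outside the family were Gprasp1 and Gprasp2, which rose, and Armcx5, Bhlhb9, Arxes1 and Arxes2, which did not pass. Over chromosome X, 84 of 612 tested genes were called higher and 23 lower, with a median of 0.14. Within the 205 kb block the log2 differences, from left to right, were those of Bex2 at 0.12, Bex4 at 0.54, Tceal8 at 0.0080, Tceal5 at 0.30, Bex1 at 0.35, Tceal9 at 0.092 and Bex3 at -0.18.

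**Figure D4:**
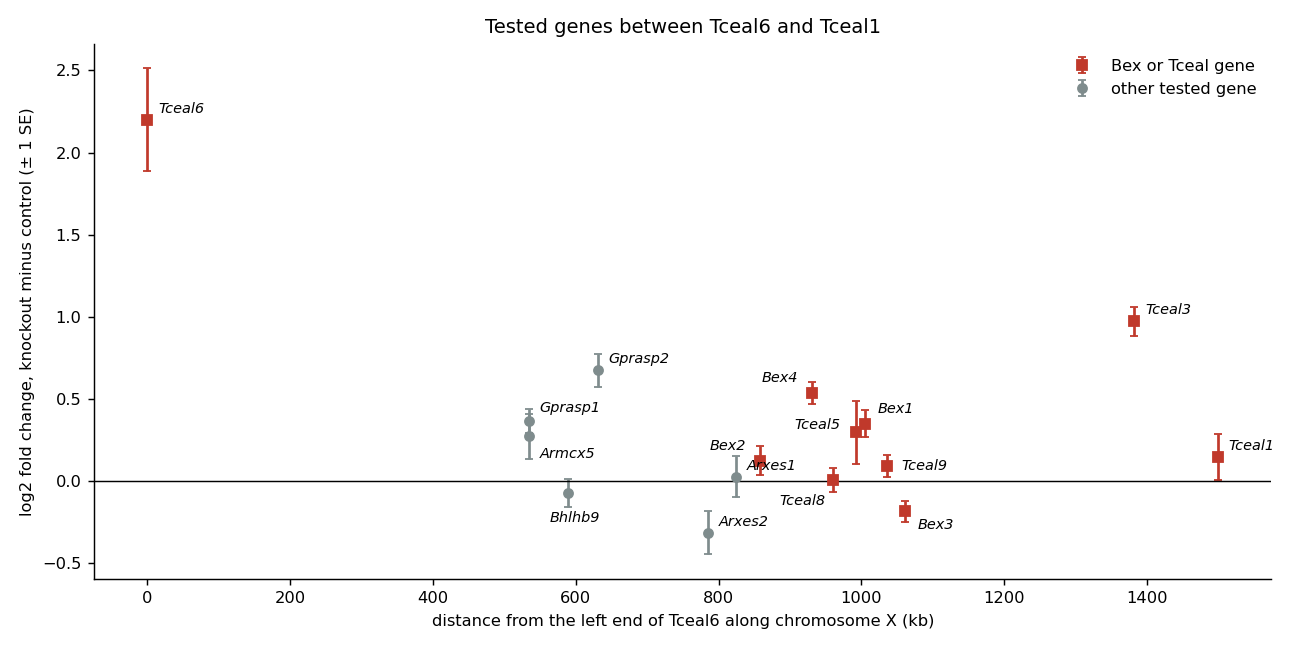
Log2 fold change, knockout minus control (y axis, bars 1 SE on each side), of the 16 tested genes between Tceal6 and Tceal1 against the distance from the left end of Tceal6 (x axis, in kb); squares are Bex or Tceal genes, circles the other tested genes. Higher and lower values lie side by side in the block of 7 genes, and the outer genes Tceal6 and Tceal3 have the highest values.

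Partners and relatives of the family were measured in the same libraries. Of the TFIIS genes, Tcea1, Tcea2 and Tcea3, 0 were called by edgeR and 0 had an unadjusted p under 0.05 by that test, while limma-voom called 1 higher. Tcea1, the broadly expressed TFIIS gene, was at 129 ± 3.82 CPM in controls and 118 ± 5.05 CPM in knockouts. Of 6 genes for the p75 receptor and described Bex partners, 5 were tested, and 0 were called by edgeR. Ldb1, a cofactor of LIM proteins, was the 1 gene with an unadjusted p under 0.05, at 236 ± 7.38 CPM in controls and 265 ± 10.03 CPM in knockouts (log2 difference 0.17, adjusted p = 0.0666), and DESeq2 also called 1. Ngfr, the gene for p75, was at 15.2 ± 4.30 CPM in controls and 20.2 ± 2.55 CPM in knockouts (log2 difference 0.41, SE 0.20, adjusted p = 0.168 by edgeR). The family members Tceal7 (1 to 18 counts per library) and Bex6 (0 or 1 count) were too low to be tested.

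Bulk kidney mixes many cell types, and fewer cells of a type and less RNA per cell cannot be told apart in these data. The marker counts below stand beside 6.61% of all tested genes called higher and 8.27% called lower by edgeR. Proximal tubule markers were lower in knockouts: all 7 proximal tubule markers fell, and their summed level was 406 to 1548 CPM in controls and 68.3 to 326 CPM in knockouts. Of 6 distal nephron and collecting duct markers 2 fell (Umod and Slc12a3), with sums of 440 to 1704 CPM and 39.1 to 843 CPM. All 6 had lower values in knockouts (4 at an unadjusted p under 0.05), with a median log2 difference of -2.23. Of 5 podocyte markers 2 fell (Nphs1 and Podxl), with sums of 378 to 559 CPM and 279 to 339.97 CPM. In knockouts 4 podocyte markers were lower (4 at an unadjusted p under 0.05) and 1 higher, with a median log2 difference of -1.13. Of 5 endothelial markers 1 fell (Emcn), with sums of 353 to 493 CPM and 249.9 to 397 CPM. All 5 had lower values in knockouts (3 at an unadjusted p under 0.05), with a median log2 difference of -0.43. Of 5 nephron progenitor markers 1 fell (Cited1), with sums of 364 to 560.2 CPM and 403 to 581 CPM, while the other 4 had higher values in knockouts (2 at an unadjusted p under 0.05) and the median log2 difference was 0.27.

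Of 8 fibroblast markers 1 rose (Pdgfra), with sums of 2849 to 4092 CPM in controls and 3319 to 5660.0 CPM in knockouts. In knockouts 7 fibroblast markers were higher (4 at an unadjusted p under 0.05) and 1 lower, with a median log2 difference of 0.55. Of 5 leukocyte markers, 4 of them tested, 1 rose (Ptprc), and the sums of 25.8 to 39.6 CPM and 49.2 to 56.6 CPM did not overlap. Of that list only Ptprc itself separated the groups, at 15.8 to 26.3 CPM in controls and 35.0 to 41.7 CPM in knockouts. The other leukocyte markers overlapped between the groups, and none of them was called. Since Bex and Tceal genes are known from neurons, neuron markers are of interest beside them: 3 of 7 rose (Stmn2, Gap43 and Prph). Their sums were 30.2 to 66.8 CPM in controls and 66.1 to 249.97 CPM in knockouts, highest in knockout replicates 4 and 1. All 7 neuron markers had higher values in knockouts (6 at an unadjusted p under 0.05), with a median log2 difference of 1.88. Schwann cell markers had sums of 19.8 to 23.0 CPM and 20.5 to 25.3 CPM, and 0 of 4 tested were called by edgeR (1 at an unadjusted p under 0.05). Of 6 tested chromaffin cell markers, with sums of 14.7 to 49.6 CPM and 9.94 to 196 CPM, 1 was called (Slc18a1, lower), while the other 5 had higher values in knockouts (4 at an unadjusted p under 0.05) and the median log2 difference was 2.67. By edgeR 0 of 7 tested adrenal cortex markers were called (4 higher at an unadjusted p under 0.05). Cyp11b1 of the adrenal cortex and Cd3e of T cells were at 0 in at least 1 library.

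Within the knockouts, Tceal6 had the same order of libraries as the summed neuron markers: replicate 4 was highest, followed by replicates 1, 2 and 3, at 3.24, 2.87, 2.61 and 1.94 CPM for Tceal6 and 249.97, 171, 93.2 and 66.1 CPM for the markers. In controls the order differed: control replicate 2 was highest in both, but control replicate 1 had the lowest Tceal6 (0.369 CPM) and the second-highest neuron sum (40.7 CPM). Several genes and marker lists were set side by side, and an order of only 4 libraries can match by chance, so the match is a description. The other 3 genes had another order. Tceal3 was at 28.0 and 27.7 CPM in knockout replicates 2 and 4, whose neuron sums were 93.2 and 249.97 CPM. Bex1 was highest, at 66.8 CPM, in knockout replicate 3, which had the lowest neuron sum of the knockouts (66.1 CPM) and an adrenal cortex sum of 32.2 CPM. Bex4 was also highest there, at 61.0 CPM. The part of stromal, leukocyte, neuron and tubular RNA in the differences of Tceal3, Tceal6, Bex1 and Bex4 was not tested.

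**Figure D5:**
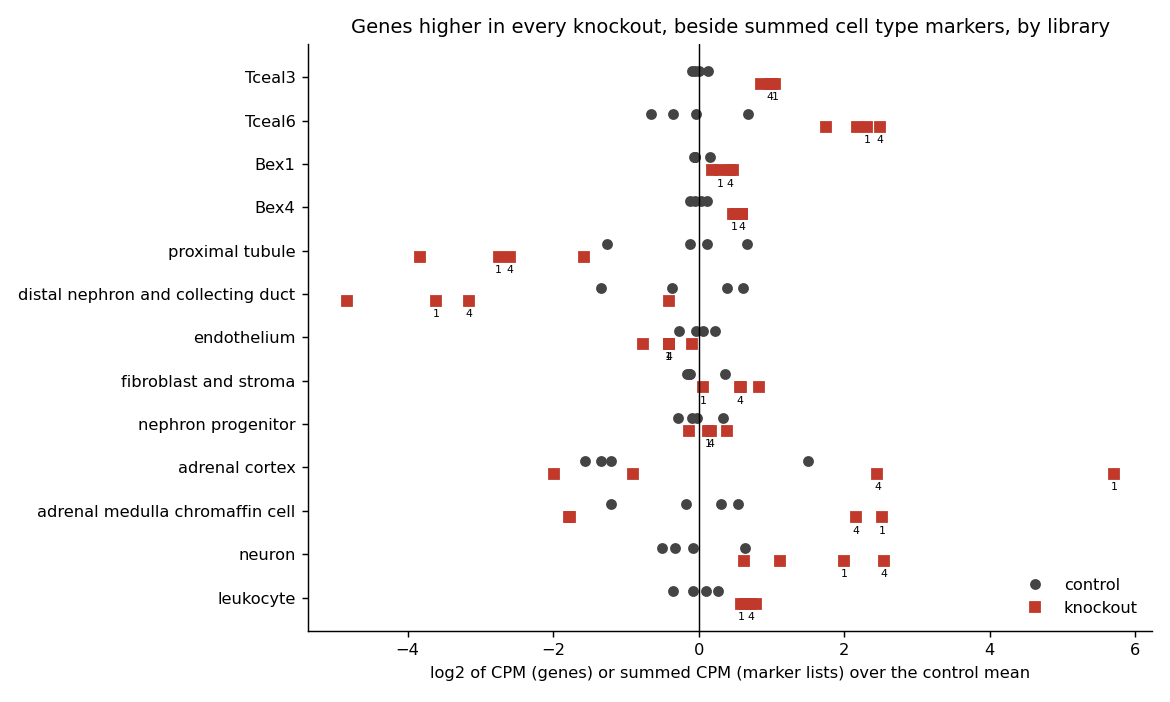
Log2 ratio to the control mean (x axis) of the CPM of the 4 genes higher in every knockout and of the summed CPM of marker lists, for each control library (circles) and knockout library (squares; 1 and 4 mark those replicates). The 4 genes are shown because every knockout lies above every control. Leukocyte sums also lie above all controls in every knockout, where Ptprc is the only gene of that list to do so, and proximal tubule sums lie below. Adrenal cortex and chromaffin cell sums are raised mainly in knockout replicates 1 and 4.

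The members differed in how they varied over the 8 libraries, given here as Pearson correlations of log2 CPM, which share the libraries and the genotype difference and are a description. Bex4 was close to Tceal6 (r = 0.96, n = 8 libraries), to Tceal3 (0.94) and to Bex1 (0.91), and Tceal3 to Tceal6 (0.93). Bex3 ran opposite to Tceal6 (-0.90) and to Bex2 (-0.86). Tceal1 was less close to Tceal3 (0.37), Tceal6 (0.21) and Bex4 (0.15).

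Over the 14176 genes compared (mean of 1 CPM or more), those most like Tceal3 over the 8 libraries were Catsperg1 (r = 0.99), a gene for a subunit of the sperm calcium channel, and then Gbgt1, a glycosyltransferase gene, Skap1, a T cell adaptor gene, Kcnh3, a potassium channel gene, and the X-linked Fndc3c1. Catsperg1 was at 2.002 ± 0.0661 CPM in controls and 9.01 ± 1.29 CPM in knockouts, and Skap1 at 6.85 ± 0.250 and 13.2 ± 0.997 CPM. Those most like Bex1 were Dock6 (r = 0.97), Myadm, Cd72, Fcgr3 and Bach1, of which Cd72 and Fcgr3 are genes of leukocytes. Fcgr3 was at 8.24 ± 0.901 CPM in controls and 11.1 ± 1.07 CPM in knockouts. The most alike gene was Astn1, a neuronal adhesion gene, for Tceal6 (r = 0.99), and the X-linked Igsf1, an immunoglobulin superfamily gene, for Bex4 (r = 0.99). Astn1 was at 2.10 ± 0.724 and 15.2 ± 3.29 CPM and Igsf1 at 3.27 ± 0.949 and 10.5 ± 0.770 CPM. For the other members it was Scml2 for Bex2 (r = 0.987), Mrps28 for Bex3 (0.997) and Bnipl for Tceal1 (0.923). It was Wnt9b for Tceal5 (0.988), Commd8 for Tceal8 (0.945) and Macf1 for Tceal9 (0.979). Members that did not pass the genotype test thus also had close partners, as the best of 14176 genes over 8 libraries. The partners are a description and carry no test.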

How the data were processed

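Messenger RNA of 4 control and 4 Kdm1a knockout kidneys was analysed, grouped by the genotype in the labels. The deposited values are raw read counts of each gene (whole numbers, per the file headers, beside exon coordinates and gene length). Per the submitters' processing notes, Trimmomatic 0.36, STAR 2.5.2b, featureCounts of Subread 1.5.2 and DESeq2 were used with GRCm38. The strand setting and the handling of reads that match several genes are not given in the sources used here.

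Symbols came from GENCODE M21 (48970 of 49315 gene IDs). Library sizes were adjusted by TMM, genes filtered with filterByExpr (18485 genes) and genotypes compared by edgeR 4.0.16 (quasi-likelihood test, R 4.3.3), two-sided, with Benjamini-Hochberg adjustment over all tested genes. An adjusted p under 0.05 is a call. SEs are the fold change over the root of F. A second fit added the Xist pattern (above or below 100 CPM). In simulated data of 18212 genes the genotype fit called 20.4% of 1.5-fold, 68% of 2-fold and 91.7% of 4-fold changes. Promoters are from RefSeq (all 10 genes matched), coding sequences from GENCODE M21. One count stood for 0.0350 to 0.0512 CPM.

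The alternatives were DESeq2 size factors, DESeq2 1.42.0, limma-voom (limma 3.58.1) with sample weights, no filter, a mean of at least 1 CPM, the replicate number as a block, covariates for adrenal markers and Xist, low-Xist libraries only, libraries left out, and the series table. Leaving out control replicate 2 with knockout replicate 3 was chosen after seeing the data. Members and lists were chosen with earlier results of these data known. Some genes of the lists are not reported here. Named genes are the members, called genes of the lists, and the genes most alike by Pearson correlation of log2 CPM (prior count 2): the top 5 for Tceal3 and for Bex1, and the top 1 for the others.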

Additional observations from a re-analysis of the deposited data

Results flagged for a closer look

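Of 20 groups of 4 libraries (10 genes in each genotype), 4 held a library whose gap to its nearest neighbour took a share of the group's range above the 95% critical value of Dixon's test, which chance gives in about 1 of 20 groups. Bex1 in control replicate 3 was at 53.7 CPM, above the other controls at 46.4 to 46.7 CPM and just below the lowest knockout. Bex2 in knockout replicate 3 was at 48.9 CPM, below the other knockouts at 55.4 to 56.5 CPM. Tceal8 in control replicate 2 was at 119 CPM, above the other controls at 105 to 106 CPM, and Tceal8 in knockout replicate 1 was at 97.3 CPM, below the other knockouts at 113 to 114 CPM.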

How the results depend on the processing

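Over 20 alternatives to the genotype fit, the log2 difference lay between 0.92 and 1.03 for Tceal3, 0.28 and 0.40 for Bex1, 0.49 and 0.58 for Bex4 and 1.96 and 2.63 for Tceal6, and Bex4 and Tceal6 were each called in 19 (adjusted p up to 0.131 and 0.139). The family was picked for the rise of Tceal3 and Bex1, so the ranges of those genes are a description. Of the 8 members other than Tceal3 and Bex1, 2 were called higher in each fit that left out 1 library and 0 to 1 lower, 0 higher without knockout replicates 1 and 4, and 1 lower (Bex3) by DESeq2, by limma-voom and without control replicate 2 with knockout replicate 3. All genes called ranged from 1 (without knockout replicates 1 and 4) and 153 (without knockout replicate 4) to 8302 (limma-voom), against 2751.

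Of the Armcx and Gprasp genes 0 to 8 were called higher when 1 library was left out, and 0 without knockout replicates 1 and 4. Of the other genes of the region, 0 to 4 were called higher and 0 to 1 lower when 1 library was left out. Without knockout replicates 1 and 4, and with the adrenal covariate, these were 0 and 0. With the Xist covariate 1 was higher, limma-voom called 2 lower, and 0 were lower with the replicate block and in low-Xist libraries only. Of the TFIIS genes 0 to 1 were called higher when 1 library was left out, and 1 by limma-voom and without control replicate 2 with knockout replicate 3. Of the p75 and Bex partner genes 0 to 1 were called higher when 1 library was left out, 1 by DESeq2 and by limma-voom, and 2 higher and 1 lower without control replicate 2 with knockout replicate 3.

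Values near 0 changed sign, none of them called. By genotype, Tceal8 was at -0.0099 with no filter and between -0.015 and 0.061 when 1 library was left out. In the Xist contrast, when 1 library was left out, Bex1 ranged from -0.090 to 0.052, Tceal3 from -0.018 to 0.084 and Tceal8 from -0.10 to 0.090. With the replicate block, Bex1 was at 0.087 and Tceal3 at -0.013. Without control replicate 2 and knockout replicate 3, Bex1 was at 0.17, Bex2 at -0.0050, Bex3 at 0.023 and Tceal8 at -0.10. Without knockout replicates 1 and 4, Tceal3 was at -0.068. With limma-voom, Tceal8 was at -0.038 and Tceal9 at -0.00060. The cause was not tested.

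Libraries of the same number had correlations of -0.11, 0.33, 0.23 and -0.059 between their deviations from the group means. The knockout most alike had the same number for control replicates 2 and 3, but not for 1 and 4. These 4 values cannot decide whether the numbers pair the samples. With the replicate number as a block, 3229 genes were called, and of the 8 members 2 were higher and 0 lower.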
